A study of Mus musculus with 59 samples.

Results

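The kidney messenger RNA input libraries of a mouse feeding study were compared between 3 high-fat libraries (HFD1, HFD2 and HFD3) and 2 low-fat libraries (LFD1 and LFD2). These 5 libraries were taken by their titles from 59 in the series. The series design describes male mice, 12 weeks old, fed a high-fat diet or a low-fat control diet for 2 weeks. All groups used here share 1 genetic background, FVB with 129P2-derived alleles: a targeted allele of Cyp3a13, a deletion between Cyp3a57 and Cyp3a59, and a transgene that puts human CYP3A4 under APOE sequences. CYP3A4 is a drug-metabolizing cytochrome P450, and nothing below separates diet from this background, which the low-fat controls carry too. The labels mark each library as input or pull-down, and 5 kidney pull-down libraries (3 high-fat, 2 low-fat) and 6 liver input libraries (3 of each diet) are used below for comparison. The labels give no animal for any library, and the p-values rest on library-to-library spread that could be technical.

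The kidney tubule reabsorbs filtered solutes with energy from mitochondria, and its proximal segment burns fatty acids, makes glucose and takes up filtered proteins through the receptors megalin (Lrp2) and cubilin (Cubn). Mitochondria carry their own small genome, whose mRNAs can make up a large part of kidney RNA, so their share of a library is a simple measure of library composition. Immediate early genes such as Egr1 and Fos are switched on within minutes by growth factors, hormones, stress or tissue handling and are switched off again soon after. In the liver, dietary fat is known to lower the lipid-making program driven by SREBP-1c, with the desaturase Scd1 as a familiar readout.

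The 5 input libraries held between 7970076 (LFD1) and 19645443 (HFD3) counts. Mitochondrial mRNA made up 16.6% of counts in HFD1 and 17.6% in LFD1. In the other 3 libraries it made up 12.0% (HFD2), 12.0% (HFD3) and 11.6% (LFD2). The 2 libraries with more mitochondrial mRNA thus come one from each diet, and the share averaged 13.5% ± 2.65 (SD, n = 3) in the high-fat libraries against 14.6% ± 4.24 (SD, n = 2) in the low-fat ones (two-sided exact permutation test p = 0.7, where 10 assignments allow no p under 0.1). HFD1 and LFD1 were singled out by this share before the test and come from different diets, so its p-value decides nothing. The libraries divide another way over all genes. HFD2 and HFD3 correlated at r = 0.992 in log2 CPM (counts scaled to library size), HFD1 and LFD1 at 0.978, and HFD1 with HFD2 and HFD3 at only 0.952 and 0.956. In counts, HFD2 and HFD3 differed by a chi-square of 6.19 per degree of freedom and HFD1 and LFD1 by 13.6, against 42.6 to 117.2 for all other pairs. HFD1 thus lay closer to both low-fat libraries than to the other 2 high-fat libraries. What sets HFD2 and HFD3 apart and diet cannot be told apart, since no low-fat library stands with them.

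**Figure D1:**
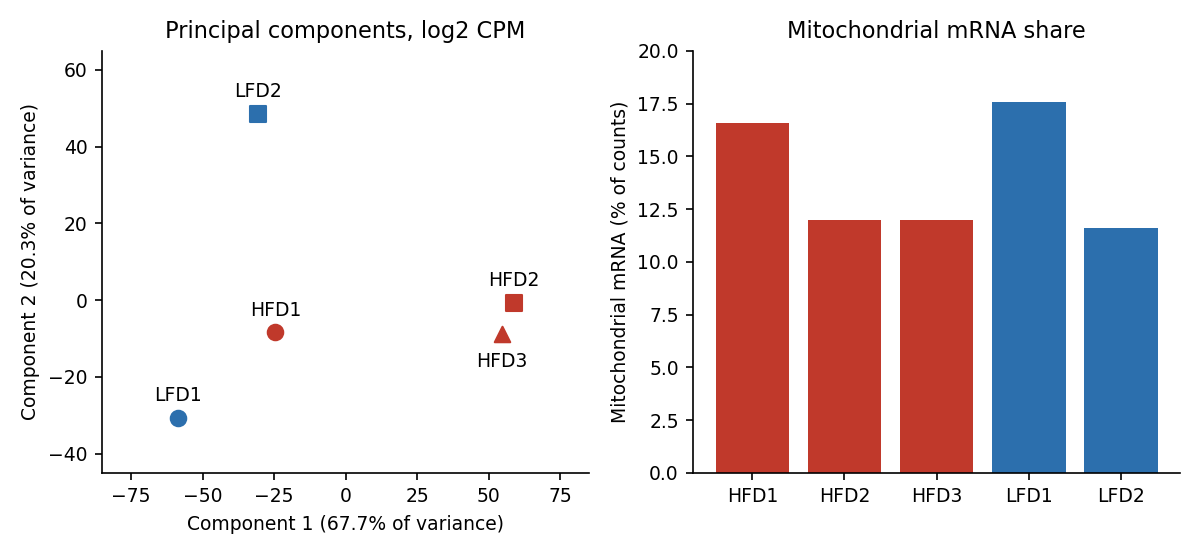
Left, the 5 kidney input libraries on the first 2 principal components of log2 CPM, in which component 1 holds 67.7% of the variance. HFD2 and HFD3 lie together and apart from the other 3 libraries. Right, mitochondrial mRNA as a percentage of each library's counts, with HFD1 and LFD1 above the other 3. Red marks high fat and blue low fat.

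The mitochondrial mRNAs did not share one order of libraries. Of the 13 protein-coding mitochondrial genes, 7 held nearly all counts, and the other 6, mt-Co2, mt-Co3, mt-Atp6, mt-Atp8, mt-Nd3 and mt-Nd4l, had at most 3 counts in any library and were not tested. Levels below are CPM scaled by trimmed mean of M-values (TMM), except sums over a gene list, which are plain CPM over all its matched genes. mt-Cytb, for cytochrome b of complex III, stood at 44672, 37125 and 39386 CPM in HFD1 to HFD3 and at 47356 and 28823 in LFD1 and LFD2. The diets overlapped for mt-Cytb. mt-Co1, for the catalytic subunit of complex IV, stood at 28747, 6657 and 5032 CPM on high fat and 35410 and 23216 on low fat, so HFD2 and HFD3 were low and HFD1 was not. mt-Nd6, the only one of the 13 on the light strand, was highest in HFD2 and HFD3, at 9280, 12740 and 12674 CPM against 8940 and 4623. Mitochondrial transcripts also have nuclear copies, and reads shared between copies may have been counted or dropped in a way not given in the sources used here.

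Cyp3a13, the targeted gene, had few counts in every library: 22, 7 and 11 in HFD1 to HFD3 and 33 and 98 in LFD1 and LFD2. Its scaled level was 1.93, 0.573 and 0.624 CPM on high fat and 4.59 and 6.81 on low fat. Cyp3a13 was called lower on high fat in the second fit described below (log2 -2.54). That call stayed in 5 of 12 alternative fits. In liver input of the same labelled background it was at 157, 88.4 and 169 CPM on high fat and 7.37, 86.3 and 94.5 on low fat, so reads are counted to the targeted gene there. The allele is in all groups and checks no diet label, and which part of the gene the counts cover is not known.

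When the 2 diets were compared without regard to composition, 0 of 15023 tested genes passed an adjusted p of 0.05 (percent called 0), while 2582 genes (17.2%) had an unadjusted p under 0.05, 9.79% higher and 7.4% lower on high fat. Each adjusted p comes from edgeR's quasi-likelihood test with Benjamini-Hochberg correction. The smallest adjusted p was 0.129, shared by genes such as Rps10, Mrpl14 and Rps14, which were higher on high fat, and Gde1, Akr1b3 and Rny3, which were lower. Other tools and samples gave other counts for the same contrast: DESeq2 called 540 genes, and edgeR called 2525 without HFD1, 140 without LFD1 and 1777 without both. Leaving out HFD1 removes the high-fat library that resembles the low-fat ones, so those calls contrast HFD2 and HFD3 with low fat. Without HFD2 and HFD3, 0 genes were called. The diets did not overlap in any library for 4686 genes (31.2% of those tested), 2397 higher (16%) and 2289 lower (15.2%).

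A second fit gave HFD1 and LFD1 a shared composition coefficient, so that diet was estimated within each kind of library by mitochondrial mRNA share. Over all genes LFD2 was nearer to HFD1 (r = 0.973) than to HFD2 and HFD3 (both 0.939). The contrast of HFD2 and HFD3 with LFD2 therefore also crosses the main division of the libraries, and kind means that share alone. The second fit called 599 genes (3.99%), of which 404 were higher on high fat (2.69%) and 195 lower (1.3%). Of the 599, 12 stayed called without HFD2, 62 without HFD3, 4 without LFD2 and 6 without both HFD2 and HFD3. Without HFD1 or LFD1 the coefficient falls away, and 593 and 51 stayed called. None of the 599 stayed called in all 5 fits that each left out 1 library; Rps10, for a protein of the small ribosomal subunit, stayed in 4, another 14 genes in 3, 96 in 2, 484 in 1 and 4 in 0. A pair of differences was therefore read for every gene without a test, HFD1 minus LFD1 and the mean of HFD2 and HFD3 minus LFD2. Both had the same sign for 64.5% of all tested genes.

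The 404 genes called higher differed between diets within both kinds of library, with a median log2 difference of 0.91 for HFD1 minus LFD1 and 1.15 for HFD2 and HFD3 minus LFD2. The same genes were also ordered by composition: 399 of 404 (98.8%) were lower in HFD1 and LFD1 than in the other 3 libraries once diet was set aside, against 50.8% of all tested genes. LFD1 was the lowest library for 357 of the 404, beside 4344 of all 15023 tested genes. The 195 genes called lower differed between the 2 kinds, with a median of -0.34 for HFD1 minus LFD1 and -2.36 for HFD2 and HFD3 minus LFD2. LFD2 was the highest library for 151 of the 195, beside 3230 of the 15023. In 193 of the 195 the second difference was the larger, beside 9851 of the 15023. These orders are read from the same libraries and the same split that made the calls, so the selection sets them in part. The part of composition in either set was not tested.

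**Figure D2:**
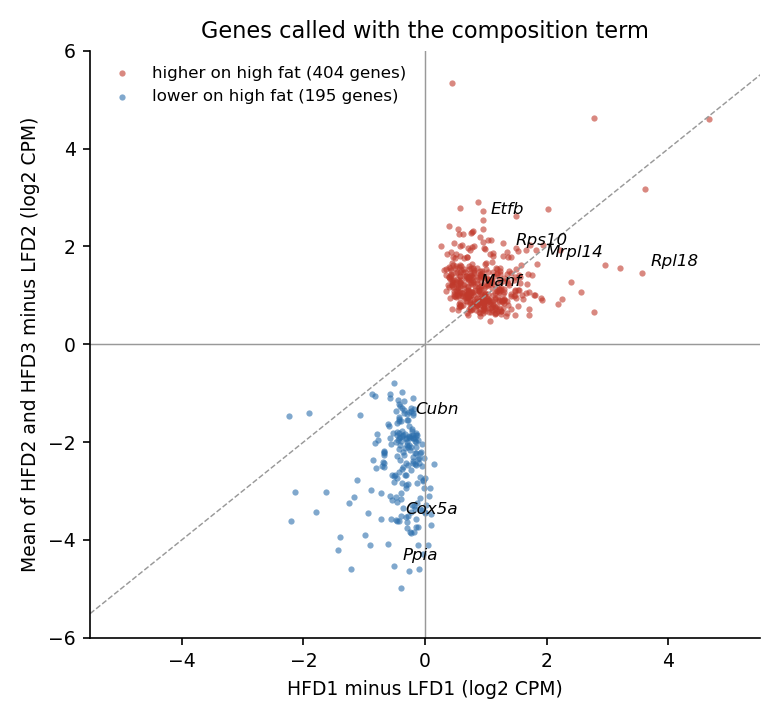
Each point is 1 of the 599 genes called with the composition term, at its log2 CPM difference HFD1 minus LFD1 (horizontal) and mean of HFD2 and HFD3 minus LFD2 (vertical). The dashed line marks equal differences. The 404 genes higher on high fat lie on both sides of this line, while most of the 195 lower genes lie close to 0 horizontally and far below 0 vertically.

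Rises are ranked here among called genes of at least median expression whose diets did not overlap and whose sign was the same within both kinds of library. Genes that overlapped, such as Rpl36, could have larger fitted rises (log2 4.54). H2afj, a histone H2A variant gene, was at 49.0, 313 and 269 CPM in HFD1 to HFD3 and at 12.0 and 42.7 in LFD1 and LFD2. The diets did not overlap, though HFD1 lay close to LFD2, and the fitted rise was 5.58-fold (log2 2.48 ± 0.24 SE, adjusted p = 0.00181). Bola2, for an iron-sulfur cluster partner protein, was at 18.6, 56.6 and 49.0 CPM against 4.73 and 12.7, a log2 rise of 2.02 ± 0.22 (SE, adjusted p = 0.00341). Mrpl14, of the mitochondrial ribosome, was at 76.8, 138 and 116 CPM against 21.3 and 40.2. Its 2 within-kind differences were nearly equal, 1.84 and 1.65 on the log2 scale. Uqcr11, a subunit of complex III, was at 302, 681 and 583 CPM against 95.8 and 166. Rps10 was at 147, 277 and 225 CPM against 57.9 and 67.1, a fitted 3.17-fold rise (adjusted p = 0.0044). Etfb (electron transfer flavoprotein), Scand1, Dohh (a hydroxylase of the translation factor eIF5A), Hras (a small GTPase) and Edf1 complete the 10 largest of these, with fitted log2 changes of 1.65 to 1.85. In each of these 10 genes HFD2 and HFD3 were higher than HFD1.

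The 10 largest falls, by the same rule, were all lowest in HFD2 and HFD3 and highest in LFD2. Ppia, for the abundant prolyl isomerase cyclophilin A, was at 42.9, 7.44 and 4.87 CPM on high fat and 60.9 and 144 on low fat. HFD1 was close to LFD1, and the fitted log2 fall of -3.02 ± 0.66 (SE, adjusted p = 0.0316) came from differences of -0.50 and -4.53 within the 2 kinds. Cox5a, a complex IV subunit, was at 84.1, 15.1 and 12.7 CPM against 116 and 171. Slc3a1, the heavy chain of the cystine transporter of the proximal tubule, was at 123, 22.4 and 15.9 CPM against 144 and 275. Acadvl, which starts the oxidation of very long-chain fatty acids in mitochondria, was at 13.8, 4.66 and 2.21 CPM against 14.7 and 82.2, so LFD2 alone was high. Mpc1 (mitochondrial pyruvate carrier), Rny3 (a Y RNA gene), Dgkq, Rps6, Akr1b3 (aldose reductase) and Ugt1a10 complete the 10, with HFD1 minus LFD1 between -0.91 and -0.03. Ribosomal protein genes, Ppia, Ftl1 and histone genes have many near-identical copies, Ugt1a10 shares exons with its neighbours, and their counts are uncertain for that reason.

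Genes at both ends of the composition difference, HFD1 and LFD1 against the other 3, are given as values with no test, since the split was made from these libraries. In some of them, such as Rpl36 and Col4a3, LFD2 lay nearer to HFD1 and LFD1 than to HFD2 and HFD3. Rpl36, of the large ribosomal subunit, was at 4.03 CPM in HFD1 and 0.417 in LFD1, against 271, 224 and 9.80 in HFD2, HFD3 and LFD2. Ftl1, the ferritin light chain, was at 171 and 28.6 CPM against 822, 651 and 351. Rps15, Rps18, Rpl28 and Mcrip2 followed the same order. Among the genes highest in HFD1 and LFD1, Col4a3, a collagen chain of the glomerular basement membrane, was at 189 CPM in HFD1 and 199 in LFD1, against 41.1 and 33.2 in HFD2 and HFD3, but 172 in LFD2. Srsf2 and Hnrnph1 (RNA-binding splicing factors), Bnip3 (mitophagy) and Zfp36l2 (mRNA decay) had the same pattern, with LFD2 near the high pair.

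The differences varied with gene length. Genomic span from RefSeq was known for 7382 of 7512 tested genes at or above median expression (98.3%). In the shortest of 5 equal groups (median 5.2 kb) the median log2 difference was 0.20 for HFD1 minus LFD1, 0.48 for HFD2 and HFD3 minus LFD2, and -0.28 for HFD1 and LFD1 against the other 3. In the longest group (median 120.5 kb) the same medians were -0.08, -0.21 and 0.21. Of the shortest group 15.5% were called higher on high fat and of the longest 0.135%, while genes called lower were 1.69% of each. In the pull-down the sign was the opposite, with a median diet change of -0.12 in the shortest group and 0.04 in the longest. Span was not fitted as a covariate, and its part in the calls was not tested.

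**Figure D3:**
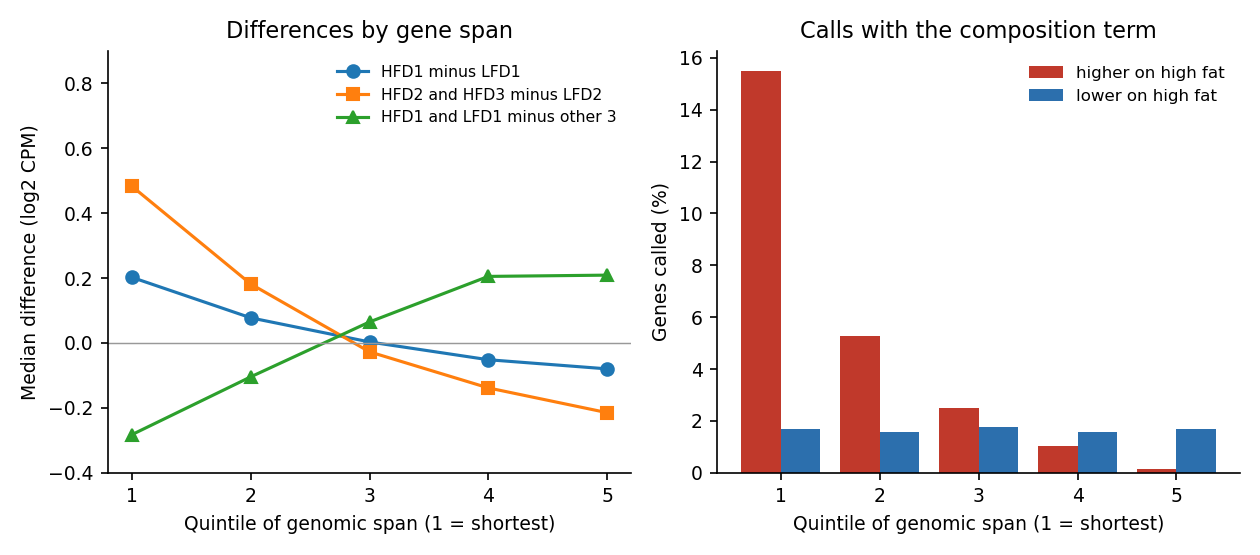
Left, the median log2 CPM difference of 3 contrasts of the input libraries in 5 equal groups of genomic span, from the shortest genes (1) to the longest (5). Right, the percentage of genes in each group called with the composition term. Calls higher on high fat fall from 15.5% to 0.135% with span, and calls lower on high fat stay between 1.56% and 1.76%.

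Genes for cytosolic ribosomal proteins, which build the ribosome, were often called. With the composition term 16 of 41 listed genes were called higher and 1 (Rps6) lower, beside 2.69% and 1.3% of all tested genes, with a median log2 change of 0.64 beside -0.01 for all. The list holds part of the family: by symbol 76 were tested, of which 23 were called higher and 3 lower, the other 2 lower ones being Rpl35a (log2 -1.55) and Rps27a (-1.41). Rplp2 was at 94.9, 262 and 225 CPM on high fat against 31.9 and 78.8 on low fat, and Rpsa at 124, 468 and 388 against 46.5 and 124. In both genes HFD1 lay close to LFD2. Rpl18 was at 35.1, 132 and 112 CPM against 2.78 and 43.7, so LFD1 alone was very low and HFD1 overlapped LFD2. For HFD1 minus LFD1 the median of the list was 0.34, and for the diet change in the pull-down it was -0.52.

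Nuclear genes of the respiratory chain, which encode most subunits of the electron transport complexes, were called higher in 4 (Ndufa2, Cox4i1, Ndufb9 and Atp5d) and lower in 2 (Cox5a and Uqcrc2) of a list of 37, beside 2.69% and 1.3% of all tested genes, with a median of 0.45. That list holds only part of the subunits. Over all 75 tested genes with a subunit symbol of complexes I, III, IV or the ATP synthase, a count added after the list was seen to be partial, 24 were called higher and 2 lower, with a median of 0.78. The 44 of them outside the list held 20 genes called higher and 0 lower, Uqcr11 among them. Ndufa2, of complex I, was at 317, 559 and 501 CPM on high fat and 149 and 210 on low fat (log2 1.23, adjusted p = 0.0114). The mitochondrially encoded mRNAs did not follow, with 1 of 7 called, the lower mt-Co1 (log2 -1.31 ± 0.30 SE, adjusted p = 0.0335). Mitochondrial tRNAs were called in 0 of 13 by edgeR with the term, though 8 had an unadjusted p under 0.05 without it, beside 17.2% of all tested genes. mt-Tq, for glutamine, was at 1820, 4828 and 3713 CPM against 1199 and 589, higher in every high-fat library (adjusted p = 0.0503 with the term). As shares of counts, mitochondrial tRNAs took 0.322%, 0.742% and 0.658% on high fat against 0.262% and 0.168% on low fat, an exact permutation p of 0.2 (two-sided, n = 3 and 2).

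Markers of the kidney tubule were present in all 5 libraries. Kap, for an androgen-regulated protein of the proximal tubule, was at 66278, 82500 and 77318 CPM on high fat and 69297 and 53382 on low fat. Slc34a1, the main phosphate transporter, was at 3701 to 5960 CPM in the 5 libraries and Umod, of the thick ascending limb, at 1083 to 1711. Of 22 proximal tubule markers 2 were called higher and 2 lower, beside the same 2.69% and 1.3%, with a median log2 change of 0.14. They included both parts of one receptor: Amn, the membrane anchor of cubilin, was at 122, 228 and 225 CPM against 53.4 and 78.3 (log2 1.39 ± 0.19 SE, adjusted p = 0.00688), while Cubn itself was at 356, 195 and 190 CPM against 437 and 562 (log2 -1.03 ± 0.23, adjusted p = 0.033). Amn is a short gene and Cubn a long one. Lrp2, the other receptor of the pathway and also long, was at 2559, 1565 and 1671 CPM against 2906 and 3057 and did not pass (adjusted p = 0.0868).

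Among 18 genes of vitamin D, phosphate and calcium handling, 3 were called higher and 1 lower, beside 2.69% and 1.3% of all tested genes. Pth1r, the receptor for parathyroid hormone, was at 396, 766 and 637 CPM on high fat and 186 and 403 on low fat, overlapping between HFD1 and LFD2. Slc34a3 (a renal phosphate transporter) and Slc9a3r1 (its scaffold NHERF1) were the other 2, and both overlapped. Slc20a1, a widely expressed phosphate transporter, was at 51.6, 40.3 and 41.5 CPM on high fat and 77.5 and 82.6 on low fat, lower in every high-fat library (log2 -0.83 ± 0.20 SE, adjusted p = 0.041). Spp2 and Slc22a13 were called higher among proximal tubule segment markers, and Aqp2, the vasopressin-regulated water channel of the collecting duct, at 181, 330 and 294 CPM against 73.2 and 166. No list of 11 thick ascending limb, 12 distal tubule or 10 intercalated cell markers held a call by edgeR at an adjusted p of 0.05, and 2, 4 and 2 of their members had an unadjusted p under 0.05 in the fit without the term, beside 17.2% of all tested genes.

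A few called genes, among them Manf, Car3, Slc20a1 and Ciart, differed little by composition, and were picked for that with their values known. Manf, a chaperone-like factor released under endoplasmic reticulum stress, was at 186, 194 and 191 CPM in HFD1 to HFD3 and at 108 and 92.2 in LFD1 and LFD2. The 3 high-fat libraries were alike and both low-fat libraries lower, and the rise was 1.92-fold (log2 0.94 ± 0.20 SE, adjusted p = 0.0297). Sdf2l1, another chaperone cofactor of the same compartment, was at 14.4, 21.8 and 20.9 CPM against 7.09 and 7.23. They were the 2 called members of 26 chaperone and unfolded protein response genes, beside 2.69% of all tested genes called higher. The median log2 change of the 26 was 0.23. Car3, a carbonic anhydrase abundant in fat cells, was at 202, 206 and 201 CPM against 123 and 98.1, and Cfd (adipsin) at 7.80, 14.9 and 9.58 against 3.06 and 4.52. Both belong to an adipocyte list with 10 tested markers and were its 2 calls, beside 2.69% of all tested genes called higher. The plain CPM of its 12 matched genes, without TMM, summed to 356 to 401 on high fat and 273 to 278 on low fat. The defining markers Adipoq, at 12.2, 14.6 and 12.98 CPM against 11.1 and 8.34, and Fabp4, at 132, 153 and 172 against 142 and 112, were not called, and the part of attached fat was not tested. In bulk tissue, more cells of a type and more RNA per cell cannot be told apart. Ciart, a repressor in the circadian clock, was at 10.3, 10.1 and 11.7 CPM against 15.6 and 23.5 (log2 -0.90 ± 0.21 SE, adjusted p = 0.0384). Of 20 clock genes no other was called, beside 2.69% of all tested genes called higher and 1.3% lower. Manf stayed called in 5 of 13 alternative fits, Car3, Ciart and Slc20a1 in 4, and their direction held in all 13.

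Other called genes came from small lists. Alas2 (erythroid heme synthesis) was called lower on 3 to 91 counts a library, while 7 of the 8 tested erythroid and platelet markers had a positive change. The plain CPM of the 10 matched markers, without TMM, summed to 1006 to 1813 on high fat against 710 to 866. Icam1, an adhesion molecule of inflamed endothelium, was called lower on 6 to 112 counts, with LFD2 alone high. Trac, the T cell receptor alpha constant gene, was at 18.2, 29.8 and 28.1 CPM against 9.04 and 9.18. Endothelial, podocyte, fibroblast and macrophage lists, with 13 to 17 tested markers each, held 0 calls by edgeR. Without the term, 0 to 2 of their members had an unadjusted p under 0.05, beside the same 17.2%. Their sums in plain CPM were lower on high fat in all but the macrophage list. Endothelial markers summed to 305 to 432 on high fat against 513 to 529 on low fat. Podocyte markers summed to 236 to 254 against 304 to 312, and fibroblast markers to 285 to 358 against 423 to 435. Macrophage markers overlapped, at 145 to 253 against 169 to 233. These sums were not tested. In plain CPM without TMM, adrenal markers summed to 3.41 to 7.30, with 4 of 13 at 0 in all 5 libraries, and hepatocyte markers to 20.03 to 27.9.

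Immediate early genes were lower in the high-fat input libraries, though the fit of all 10 kidney libraries called none. Of 21 tested members 19 had a negative change in the composition-term fit, and 17 of 21 were lower in all 3 high-fat than in both low-fat libraries, beside 15.2% of all tested genes. The median log2 change was -0.81, with -1.20 for HFD1 minus LFD1 and -0.69 for HFD2 and HFD3 minus LFD2. Summed over the 24 matched genes of the list, plain CPM without TMM was 367, 409 and 438 in HFD1 to HFD3 and 891 and 835 in LFD1 and LFD2. The median composition difference of the members was -0.04. The median diet change stayed between -0.71 and -1.35 in all alternative fits.

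Egr1, a zinc finger transcription factor, was at 12.9, 14.6 and 13.4 CPM on high fat and 76.9 and 72.8 on low fat. The 3 high-fat libraries were alike and both low-fat libraries lay far above them, a mean of 13.7 ± 0.897 (SD, n = 3) against 74.9 ± 2.87 (SD, n = 2). Fos, a subunit of AP-1, was at 3.16, 3.60 and 4.14 CPM against 18.6 and 14.6, and Jun, its partner, at 19.8, 27.4 and 32.7 against 68.0 and 60.5. Nr4a1, an orphan nuclear receptor, was at 4.47, 4.91 and 9.41 CPM against 31.2 and 25.8. Btg2, an antiproliferative regulator of mRNA decay, was at 10.8, 11.1 and 12.0 CPM against 37.7 and 38.0. Zfp36, which marks inflammatory mRNAs for decay, was at 46.6, 33.1 and 39.5 CPM against 143 and 109, and Dusp1, a phosphatase of MAP kinases, at 120, 115 and 127 against 310 and 233. Cxcl1, a neutrophil-attracting chemokine, followed the same order at 7.45, 6.22 and 5.95 CPM against 67.6 and 39.9. None overlapped between diets. Apart from Dusp1, Zfp36 and Cxcl1, these genes were chosen with their values already in view.

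With the 10 kidney libraries in the fit, 0 of the 21 genes passed by edgeR, and 8 had an unadjusted p under 0.05 without the composition term, beside 17.2% of all tested genes. The log2 change of Egr1 was -2.46 ± 0.78 (SE, adjusted p = 0.0935), of Zfp36 -1.60 ± 0.46 (adjusted p = 0.0684) and of Cxcl1 -2.91 ± 0.92 (adjusted p = 0.0908). With the 5 input libraries alone, 0 genes were called without the term. With the term, 111 genes were called over all tested. These held 5 of 22 early genes, Egr1 (adjusted p = 0.0243), Fos (0.0394), Btg2 (0.0382), Zfp36 (0.0382) and Dusp1 (0.0461), and Cxcl1 as well (0.0243).

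The pull-down libraries were ordered otherwise. In them Egr1 was at 14.04, 127.9 and 19.5 CPM in HFD1 to HFD3 and 100.5 and 16.1 in LFD1 and LFD2. Pull-down HFD2 was high where input HFD2 was low, and pull-down LFD2 was low where input LFD2 was high. The same held for Fos, at 3.81, 22.4 and 2.61 CPM against 15.8 and 3.12, and for Cxcl1, at 6.90, 117 and 11.5 against 74.3 and 12.9. Btg2, Nr4a1, Jun, Zfp36 and Dusp1 were also highest in pull-down HFD2 or LFD1. The labels do not say that an input and a pull-down of the same name come from the same animal, and the cause of this order was not tested. Whether libraries numbered 2 were exchanged between diets in one fraction was not tested, and every pull-down diet change given here rests on the names as deposited. The direction of these genes with diet therefore rests on the names of the input libraries alone.

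**Figure D4:**
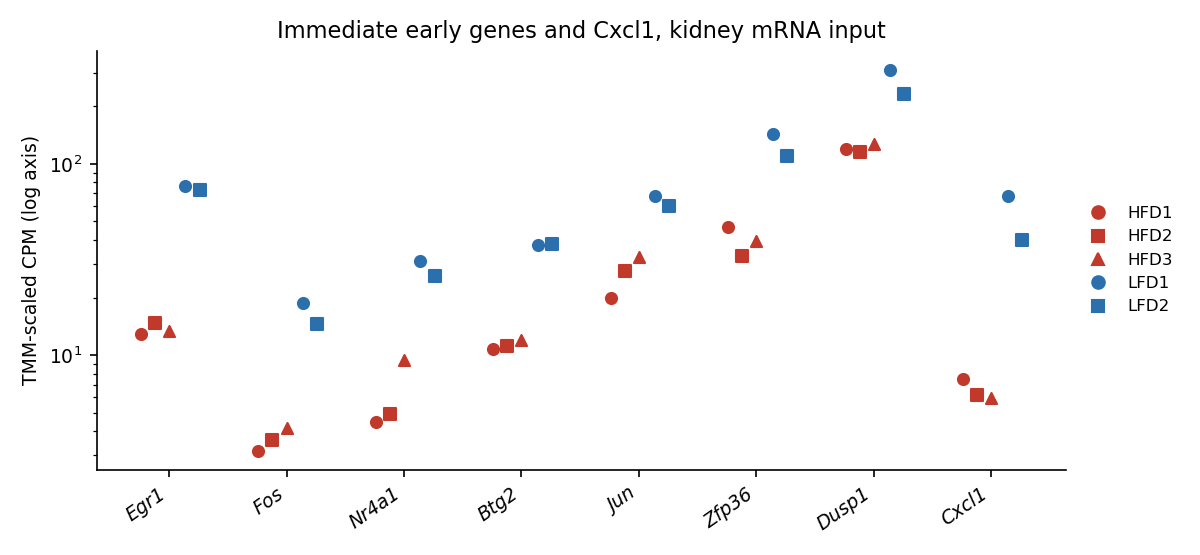
TMM-scaled CPM (log axis) of 7 immediate early genes and Cxcl1 in each kidney input library, red for high fat and blue for low fat. In each of the 8 genes both low-fat libraries lie above all 3 high-fat libraries, with Egr1 at 72.8 and 76.9 against 12.9 to 14.6.

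The upstream sequences of 5 of these genes are given because all 5 genes were lower in every high-fat input library, and because their known inducers act through short elements there. Each run is the 250 bases before the RefSeq start on GRCm38.p6, the assembly of mm10, written along the gene's strand. Capitals mark the core TGACG of the cAMP response element (CGTCA on the other strand), whose full form is TGACGTCA, and the CArG box bound by serum response factor.
Fos (chr12:85473640-85473889, + strand): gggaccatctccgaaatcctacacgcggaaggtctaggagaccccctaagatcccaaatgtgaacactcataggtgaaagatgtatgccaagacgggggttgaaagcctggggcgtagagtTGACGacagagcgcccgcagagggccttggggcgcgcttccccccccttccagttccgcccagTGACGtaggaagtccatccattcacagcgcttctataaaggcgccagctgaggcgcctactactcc
Zfp36 (chr7:28379229-28379478, - strand): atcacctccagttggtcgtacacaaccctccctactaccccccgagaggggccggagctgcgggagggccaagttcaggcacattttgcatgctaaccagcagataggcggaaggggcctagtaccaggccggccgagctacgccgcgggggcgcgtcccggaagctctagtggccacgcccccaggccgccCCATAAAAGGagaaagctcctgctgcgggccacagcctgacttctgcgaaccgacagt
Btg2 (chr1:134079156-134079405, - strand): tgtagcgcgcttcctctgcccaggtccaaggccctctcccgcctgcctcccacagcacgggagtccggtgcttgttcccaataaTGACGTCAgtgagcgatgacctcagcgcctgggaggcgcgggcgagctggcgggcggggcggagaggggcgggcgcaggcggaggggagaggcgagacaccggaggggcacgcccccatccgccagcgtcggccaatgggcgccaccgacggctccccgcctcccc
Nr4a1 (chr15:101266596-101266845, + strand): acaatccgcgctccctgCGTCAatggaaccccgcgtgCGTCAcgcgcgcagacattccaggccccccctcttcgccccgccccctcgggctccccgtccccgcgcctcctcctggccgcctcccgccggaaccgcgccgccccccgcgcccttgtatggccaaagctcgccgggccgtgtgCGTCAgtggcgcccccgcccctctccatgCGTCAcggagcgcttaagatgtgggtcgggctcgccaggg
Dusp1 (chr17:26508473-26508722, - strand): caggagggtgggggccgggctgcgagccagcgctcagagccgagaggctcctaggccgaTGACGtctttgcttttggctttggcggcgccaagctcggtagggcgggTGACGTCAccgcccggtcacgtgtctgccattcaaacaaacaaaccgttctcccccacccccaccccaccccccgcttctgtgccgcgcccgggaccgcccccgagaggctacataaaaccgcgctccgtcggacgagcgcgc

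On either strand, Fos held 2 cores, Nr4a1 4 and Zfp36 none but 1 CArG box. Btg2 and Dusp1 each held the full element, which counts as 2 overlapping cores, and Dusp1 held 1 more. Of the 18 listed immediate early genes with an entry in the table, 11 held a core (61.1%), beside 17.8% of 32851 starts in the same window. The full element was in 2 of 18 (11.1%) beside 1.55%, and the CArG box in 2 of 18 (11.1%) beside 1.47%. A gene with several starts counted once if any start matched. These matches describe letters, not bound sites.

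Lipid genes were counted in fixed lists, which do not hold every lipid gene. Of 33 listed and tested fatty acid oxidation and PPAR-alpha target genes 0 were called higher and 1 lower (Acadvl), beside 2.69% and 1.3% of all tested genes, with a median log2 change of -0.01. Called genes outside the lists went both ways, such as Acot13 (an acyl-CoA thioesterase) at log2 0.77, Ebp (a sterol isomerase) at 0.84, and Acad9 (-1.79) and Lipa (lysosomal acid lipase, -0.67). Cpt1a, which admits fatty acids to mitochondria, was at 357, 367 and 385 CPM on high fat and 397 and 421 on low fat. Cyp4a10, a fatty acid hydroxylase, was at 313, 280 and 254 CPM against 280 and 177, and Pdk4, a brake on glucose oxidation, at 43.0, 10.8 and 26.9 against 37.8 and 31.8. Neither passed the test. Elovl1 was the 1 of 24 fatty acid and triglyceride synthesis genes called (higher), and Mvd the 1 of 24 cholesterol genes (higher). Scd1 was at 226, 137 and 127 CPM on high fat and 389 and 360 on low fat. All 3 high-fat libraries were lower, with a log2 change of -1.17 ± 0.35 (SE, adjusted p = 0.0772 with the term and 0.167 without). Ren1, for renin, was at 137, 264 and 253 CPM against 96.0 and 120 (adjusted p = 0.0585).

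The same diets were compared with liver in 1 fit of the 5 kidney and 6 liver input libraries. The diet change differed between the tissues for 124 of 13179 genes (0.941%), 17 to 2513 when a kidney library was left out, and 6 when liver libraries that differed by little more than sampling noise were summed (HFD1 with HFD3, and LFD2 with LFD3). All genes were followed in 7 alternatives: with the composition term, without each kidney library in turn, and with the close liver libraries summed. There were 6 genes called in this fit and in all 7: Scd1, Egr1, Slc2a4, Acot3, Creld2 and Gm45792. They were not followed under other scalings, such as total counts. Scd1 fell in liver from 11212, 15603 and 15805 CPM on low fat to 223, 242 and 218 on high fat, a log2 change of -5.96. The kidney change was 4.75 log2 units less negative (adjusted p = 0.000739, or 0.029 with the close liver libraries summed). Egr1 ran in opposite directions, in liver at 95.1, 96.8 and 101.9 CPM on high fat and 44.2, 61.0 and 53.5 on low fat. The difference of changes was -3.35 (adjusted p = 0.00029, or 0.0188 with the close liver libraries summed). Cxcl1 was also higher on high fat in liver. Fos, Jun, Nr4a1, Btg2, Zfp36 and Dusp1 did not turn, and were lower in all high-fat than in all low-fat liver libraries. The median liver change of the immediate early list was -0.48. Creld2, a chaperone of the endoplasmic reticulum, was at 180, 163 and 181 CPM against 19.5, 20.8 and 17.8 in liver, and in kidney at 56.4, 50.6 and 50.0 against 30.3 and 42.3 (difference -2.66). Slc2a4, the insulin-responsive glucose transporter, and Acot3, a peroxisomal thioesterase, were lower on high fat in liver, Slc2a4 with only 1, 2 and 1 counts there against 27, 58 and 50 on low fat, and had kidney differences of 0.35 and 0.24 log2 units, which did not pass.

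**Figure D5:**
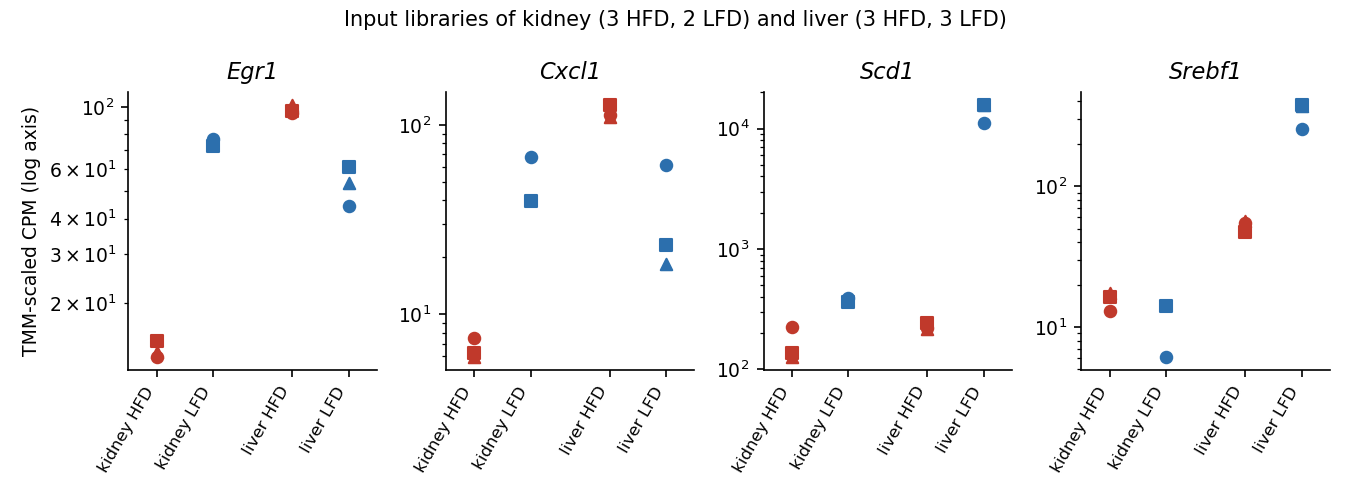
TMM-scaled CPM (log axis, a separate scale per gene) of 4 genes in the kidney and liver input libraries, red for high fat and blue for low fat, 1 point a library. Egr1 and Cxcl1 are lower on high fat in kidney and higher in liver. Scd1 is lower on high fat in both tissues, far more so in liver, and Srebf1 is lower on high fat in liver and overlaps between diets in kidney.

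The diet change of input was also set against that of the pull-down. 0 of 15023 genes were called in the pull-down (percent called 0) and 0 for the difference between the fractions by edgeR, or 165 (1.1%) for the difference with the composition term. Mrpl14, higher in each high-fat input library, was at 12.6, 8.79 and 8.18 CPM in pull-down HFD1 to HFD3 and 18.3 and 13.4 in pull-down LFD1 and LFD2. Manf, at 94.7, 100.2 and 112.2 CPM against 81.3 and 129.0, overlapped between diets there. Of the 404 genes called higher in input 94 (23.3%) had a positive change in the pull-down, and of the 195 called lower 100 (51.3%) had a negative one, beside 43.8% of all tested genes with the same sign in both.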

How the data were processed

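Gene counts of 59 libraries were deposited by the authors as raw whole-number counts per gene, for which the submitters' processing notes name STAR, HTSeq and mm10. The sources used here give no version, annotation release or strand setting, so overlapping and antisense genes cannot be told apart. Per the labels' protocols, RNA came from flash-frozen tissue by NucleoZOL and every library from a small RNA kit, which gives no molecular identifiers. The kidney input libraries held 7970076 to 19645443 counts.

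Counts were tested with edgeR 4.0.16 (R 4.3.3), by the quasi-likelihood F test after TMM scaling and filterByExpr (minimum count 10, minimum total 15), in 1 fit of 10 kidney libraries in 4 groups. Calls are at a Benjamini-Hochberg adjusted p of 0.05. Levels of single genes are TMM-scaled CPM, and the differences within library kinds use log2 CPM with a prior count of 2. Sums over a list are plain CPM without TMM, over all its matched genes. A further fit gave HFD1 and LFD1 a coefficient of their own. Shares of counts were compared by exact permutation. The script was tested on simulated data. DESeq2 1.42.0, other scalings, filters and left-out libraries were alternatives.

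Named genes were the 10 largest rises and falls of at least median expression without overlap between diets and with 1 sign within both kinds of library (failing 3 such genes, the 3 of lowest p), up to 4 called or 2 highest expressed members of each list, 18 tested genes of kidney and lipid function, mitochondrial mRNAs, and 8 genes at each end of the composition difference. The text gives part of these. Egr1, Fos, Jun, Nr4a1, Btg2, Adipoq, Creld2, Slc2a4, Acot3, Fasn, Rpl35a, Rps27a, Uqcrc2, Acot13, Ebp, Acad9, Lipa and the counts of families by symbol were added after their values were seen. The members and lists were chosen with earlier results of these data known. Promoter sequences and gene spans are RefSeq's.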

Additional observations from a re-analysis of the deposited data

Results flagged for a closer look

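The diet change differed between kidney and liver input, by the interaction in edgeR's quasi-likelihood test, for 10 genes named here. Values are the kidney change minus the liver change in log2 units. The difference was 4.75 for Scd1, 5.43 for Slc2a4, 3.36 for Acot3, -3.35 for Egr1 and -2.66 for Creld2, and these 5 passed in each of the 7 alternatives in which all genes were followed. Slc2a4 had only 1, 2 and 1 counts in the high-fat liver libraries, so the size of its fitted difference depends on the prior count. The difference was -4.85 for Cxcl1 (adjusted p = 0.0046, or 0.0573 with the close liver libraries summed) and 3.25 for Srebf1 (0.00953, or 0.152 with them summed). It was 3.45 for Fasn, which codes for fatty acid synthase (adjusted p = 0.0144, at most 0.187 in the alternatives). It was 2.00 for Cyp4a10 (0.0173, at most 0.195) and 3.17 for Ren1 (0.0352, at most 0.239). Ren1 was at 0.706 to 7.36 CPM in liver, and Cyp4a10 has near-identical neighbours whose reads cannot be told apart here.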

How the results depend on the processing

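Without a composition term it was 0, and 0 with RLE scaling, total counts, 10 CPM, mitochondrial genes removed or the 5 input libraries alone. It was 599 with the term, 2 with the mitochondrial mRNA percentage as covariate, 111 with the 5 input libraries and the term, 1201 with no filter, 540 by DESeq2, 1777 without HFD1 and LFD1, and 0 to 2525 when 1 library was left out. With the term, 599 became 618 with RLE scaling, 550 at 10 CPM, 103 with total counts, 111 with the 5 input libraries alone, 1307 by DESeq2, 8 without HFD2 and HFD3, 0 with no composition term, and 5 to 2525 when 1 library was left out (the term falls away without HFD1 or LFD1). Total counts moved the median of all genes by -0.13 on the log2 scale. The cause of these changes was not tested.

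The difference between input and pull-down was called for 0 genes, 165 with the term, and 0 to 1397 when 1 library was left out. The difference between kidney and liver was called for 124 genes, 1726 with the term, 45 with total counts, 6 with the close liver libraries summed, and 17 to 2513 when 1 library was left out.

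With the replicate number as a block the diet comparison called 120 genes, with or without the composition term replaced by it. Deviations from the group mean correlated at 0.26 between HFD1 and LFD1 and at 0.31 between HFD2 and LFD2. The deviations of LFD1 and LFD2 from their shared mean differ only in sign, so these 2 values are not independent. Input and pull-down libraries of the same name correlated at -0.12 to -0.01. Only 2 pairs of inputs exist and no label gives the numbers a meaning, so the pairing is not established.

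Some directions turned. Without HFD2 and HFD3 the log2 change without the term became -0.44 for Rpl36, -0.16 for Ftl1, -0.65 for Mcrip2, -1.66 for Rpl28, 0.030 for Col4a3, 0.055 for Bnip3, 0.052 for Zfp36l2, -0.12 for Mvd, -0.045 for Umod and 0.31 for Pdk4. With the term it became -0.084 for mt-Cytb, -0.034 for Umod, 0.18 for Pdk4, -0.064 for Kap and -0.11 for Fabp4. With total counts mt-Cytb was at -0.0056. When 1 library was left out, the change without the term ran from -0.88 to 0.0011 for Pdk4, -0.29 to 0.49 for mt-Cytb, -0.053 to 0.67 for Cyp4a10 and -1.13 to 0.023 for Fasn. With the term it ran from -0.14 to 0.49 for mt-Cytb, -0.087 to 0.61 for Umod, -0.88 to 0.13 for Pdk4, -0.12 to 0.50 for Kap and -0.16 to 0.45 for Fabp4.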
